A study of Mus musculus with 4 samples.

Results

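Regulatory T cells are CD4+ T cells that restrain immune responses, and their genes were followed here in thymocytes from which CD25+ cells had been sorted out. The group comprised 10 genes, Foxp3, Il2ra, Ikzf2, Ikzf4, Nrp1, Ctla4, Tnfrsf18, Tnfrsf4, Tnfrsf9 and Gpr83. Every probe set that the platform annotation gave exactly one of these symbols was taken, which gave 21 of 45037 probe sets and 10 of 18193 named genes. RNA came from CD4 single-positive thymocytes of B6 mice, on 2 arrays labelled KO (CD4 Cre+ Cul3fl/fl) and 2 labelled LM (CD4 Cre- Cul3fl/fl). Both groups carried floxed Cul3, and the sort, done at low temperature, kept cells without CD25, PBS57-loaded CD1d tetramer binding or a gamma delta T cell receptor. The CD4-Cre transgene becomes active in double-positive thymocytes, so in the KO group it acts in precursors of conventional and regulatory T cells alike. No array of CD25+ cells, or of mice with Cre and unfloxed Cul3, was analysed here, so an effect of Cre itself cannot be told apart from one of Cul3 removal.

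In the thymus, developing CD4+ cells that receive strong T cell receptor signals gain CD25, the alpha chain of the interleukin-2 receptor, and the receptors GITR, OX40 and 4-1BB of the tumour necrosis factor receptor family. Interleukin-2 acting through STAT5 then helps to switch on Foxp3, the transcription factor that fixes the regulatory lineage. Foxp3 can also appear before CD25 in some precursors, and activated conventional cells share several of these genes. Removing CD25+ cells therefore removes most mature regulatory T cells but need not remove all cells that carry such RNA.

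The arrays carried the RNA of CD4 T cells. Cd3d, Cd3e, Cd3g, Cd4, Cd5, Thy1 and Zbtb7b were above background on every array, with a summed signal of 43447 to 47908 on the KO arrays and 45646 to 48237 on the LM arrays. Background was the 95th percentile of 80 odorant and pheromone receptor probe sets, a signal of 97.4 and 83.4 on KO replicates 1 and 2 and of 108.7 and 85.2 on LM replicates 1 and 2. The targeted gene did not differ at its brightest probe set, which read 5380 and 5577 on the KO arrays against 5333 and 5724 on the LM arrays (-0.01 ± 0.09, log2 difference ± SE, limma adjusted p = 0.994). The other Cul3 probe sets gave 0.31, 0.07, -0.15 and -0.02. At each of them the groups overlapped and the difference was not called. Where the deleted part of Cul3 lies relative to its probe sets is not given in the sources used here, so KO and LM below mean the arrays so labelled. In this bulk RNA, fewer cells of a type and less RNA per cell cannot be told apart.

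None of the 10 genes passed the test between the genotypes, although 9 of the 10 differences were positive, against 50.3% of all 11254 genes tested. The median difference of the 10 genes was 0.22 on the log2(signal + 16) scale, against 0.00 over all genes tested, and was 0.10 without KO replicate 1. Called differences (limma, adjusted p under 0.05 over all genes tested) made up 0.275% of those genes, so a count of 0 among 10 genes is near that background. Unadjusted p-values lay under 0.05 for 4 of the 10 genes, Il2ra, Ikzf2, Nrp1 and Ikzf4, all with higher signal on the KO arrays, against 4.22% of all genes tested in that direction. These same 4 genes were the ones with both KO arrays above both LM arrays, against 19.1% of all genes tested. Gpr83 was the only one with both KO arrays below both LM arrays, against 18.3%. The 10 genes were chosen with earlier results of these arrays known, so these contrasts with all genes tested are not independent evidence.

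**Figure D1:**
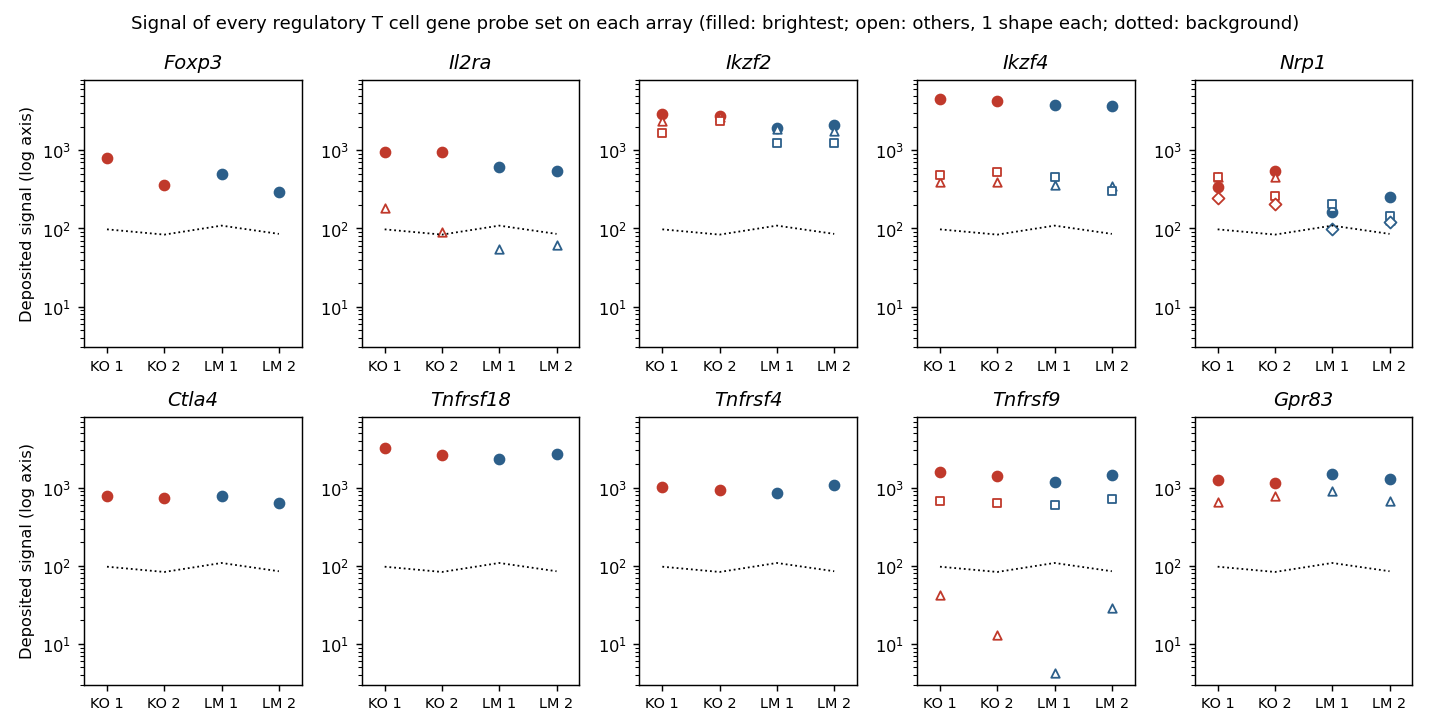
Deposited signal (log axis) of all 21 probe sets of the 10 genes on the 2 KO arrays (red, left) and the 2 LM arrays (blue, right), 1 panel per gene. Filled circles are the brightest probe set of a gene, open symbols its others, and the dotted line is the background of each array; Il2ra and Ikzf2 show clear gaps between the groups at the brightest probe set, while Foxp3 overlaps.

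Il2ra encodes CD25 itself, by which cells were sorted out, and its RNA was detected on every array at the brighter of its 2 probe sets. That probe set read 962.6 and 948.5 on the KO arrays, against 611.3 and 540.0 on the LM arrays. The groups did not overlap, and the 2 KO arrays lay closer together than the gap between the groups. The difference was 0.72 ± 0.19 (limma adjusted p = 0.221), a 1.65-fold higher signal on the KO arrays with a 95% interval of 1.24 to 2.20, and it ran from 0.66 to 0.79 with any 1 array left out. The dimmer probe set, made from the same source record, read 184.4 and 89.1 on the KO arrays and 54.2 and 60.6 on the LM arrays. It was above background on both KO arrays and below it on both LM arrays, but KO replicate 2 stood little above its background of 83.4. With the LM arrays raised to background the KO mean was 1.23-fold higher, a figure that takes no account of spread. The interval in limma's fit over all probe sets ran from 0.895-fold to 3.95-fold (adjusted p = 0.718). The dimmer probe set entered that fit only through the KO arrays. An array signal does not report how much CD25 protein the sorted cells carried.

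Foxp3, the lineage factor, was above background on all 4 arrays at its 1 probe set. It read 794.3 and 362.9 on the KO arrays, against 498.7 and 288.5 on the LM arrays. KO replicate 1 was highest, while KO replicate 2 lay between the LM arrays, so the groups overlapped. The spread within the KO pair (SD 0.79, n = 2) exceeded the difference of 0.48 ± 0.34 (limma adjusted p = 0.804). Its 95% interval ran from 0.828-fold to 2.33-fold, the widest of the 10 genes, so these arrays do not show whether Foxp3 RNA differed. The difference was -0.09 without KO replicate 1, 1.04 without KO replicate 2, 0.81 without LM replicate 1 and 0.14 without LM replicate 2.

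Upstream sequence is shown for Foxp3 and for the genes with the largest differences that the RefSeq promoter table holds, Il2ra and Nrp1, so that the sites discussed for interleukin-2 and T cell receptor signalling can be looked for. Each line gives 250 bases before a transcription start, 5′ to 3′ on the plus strand of GRCm38.p6. Capitals mark matches to the STAT5 site TTCNNNGAA or to the NFAT core GGAAA, which reads TTTCC on the other strand. Foxp3 has another start, not shown, whose window (chrX:7579426-7579675) held 1 NFAT match and no STAT5 match. The Foxp3 window shown is thus the 1 with a STAT5 match.
Foxp3, chrX:7580233-7580482: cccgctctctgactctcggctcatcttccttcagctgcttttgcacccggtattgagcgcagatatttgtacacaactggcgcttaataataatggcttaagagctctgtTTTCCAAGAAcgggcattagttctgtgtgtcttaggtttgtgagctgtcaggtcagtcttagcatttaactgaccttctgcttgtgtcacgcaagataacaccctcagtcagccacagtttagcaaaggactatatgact
Il2ra, chr2:11642542-11642791: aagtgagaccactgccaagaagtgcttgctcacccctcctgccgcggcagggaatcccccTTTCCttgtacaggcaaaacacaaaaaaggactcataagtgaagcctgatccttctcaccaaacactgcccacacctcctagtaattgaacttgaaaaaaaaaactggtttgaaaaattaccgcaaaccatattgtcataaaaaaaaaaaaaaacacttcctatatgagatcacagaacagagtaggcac
Nrp1, chr8:128358823-128359072: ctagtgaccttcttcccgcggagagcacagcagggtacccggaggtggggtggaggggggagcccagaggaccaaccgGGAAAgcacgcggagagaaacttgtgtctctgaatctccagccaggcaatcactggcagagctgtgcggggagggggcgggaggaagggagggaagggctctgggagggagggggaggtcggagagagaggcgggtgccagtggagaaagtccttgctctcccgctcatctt
Upstream of this Foxp3 start, the STAT5 match begins 139 bases before the start and overlaps the NFAT match. The Il2ra and Nrp1 windows hold 1 NFAT match each and no STAT5 match. Of 32851 mouse promoter windows of this length, 7.02% held the STAT5 letters and 55.6% the NFAT letters. Of the other members in the table, Tnfrsf18 and 1 of the 2 Tnfrsf9 starts also held a STAT5 match, and Ctla4, Tnfrsf4, Gpr83 and the other Foxp3 and Tnfrsf9 starts held none. On either strand, the AP-1 letters TGANTCA were found in 6.75% of all windows and upstream of 1 Tnfrsf9 start, the forkhead letters GTAAACA (3.17%) and the CREB letters TGACGTCA (1.55%) upstream of none of the members. These matches describe the letters in these windows and nothing of what binds there.

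The Ikaros family zinc finger factors Ikzf2 (Helios) and Ikzf4 (Eos) mark regulatory T cells, and Eos acts with Foxp3 in silencing genes. Ikzf2 read 2953.6 and 2741.8 on the KO arrays, against 1942.6 and 2121.5 on the LM arrays, at its brightest probe set. Both KO arrays were above both LM arrays, here and at the other 2 probe sets, where the differences were 0.44 and 0.68. The difference at the brightest was 0.49 ± 0.13 (limma adjusted p = 0.245), or 1.40-fold with a 95% interval of 1.15 to 1.72, and ran from 0.43 to 0.55 with any 1 array left out.

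For Ikzf4 the brightest probe set read 4504.3 and 4280.2 on the KO arrays, against 3809.6 and 3682.9 on the LM arrays. The gap was small but wider than the distance within either pair, with a difference of 0.24 ± 0.11 (limma adjusted p = 0.587), and both other probe sets also had the KO arrays on top (0.15 and 0.39). The rest of the family, which acts broadly in lymphocytes, gave Ikzf3 0.13 ± 0.09, Ikzf1 -0.11 ± 0.10 and Ikzf5 -0.01 ± 0.20, and 0 of these 3 genes passed the test.

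Nrp1 encodes neuropilin-1, a semaphorin and vascular growth factor co-receptor found on thymus-derived regulatory T cells, and had the largest difference of the 10 genes. Its brightest probe set read 338.1 and 536.0 on the KO arrays, against 162.6 and 252.7 on the LM arrays. The groups did not overlap, although the 2 arrays of each pair stood further apart on the log2 scale than the nearest KO and LM arrays. The difference was 1.01 ± 0.31 (limma adjusted p = 0.331), or 2.01-fold with a 95% interval of 1.26 to 3.22. It was 1.31 without KO replicate 1, 0.70 without KO replicate 2, 0.67 without LM replicate 1 and 1.35 without LM replicate 2.

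The other 3 Nrp1 probe sets gave differences of 0.89, 0.90 and 1.45, each with both KO arrays above both LM arrays. The probe set with the largest difference read 459.9 and 460.7 on the KO arrays, against 186.6 and 127.6 on the LM arrays. With a 2.74-fold difference (95% interval 1.83 to 4.10) it came nearest to a call among the 20 tested probe sets of the members. Its adjusted p was 0.0505 in limma's fit over 21793 probe sets, of which 0.229% were called. It was singled out after its values were seen. Of the 4 Nrp1 probe sets, 3 were designed from the same source record, and all 4 read the same RNA, so they are not independent measurements. The probe set with the difference of 0.89 was below background on LM replicate 1.

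**Figure D2:**
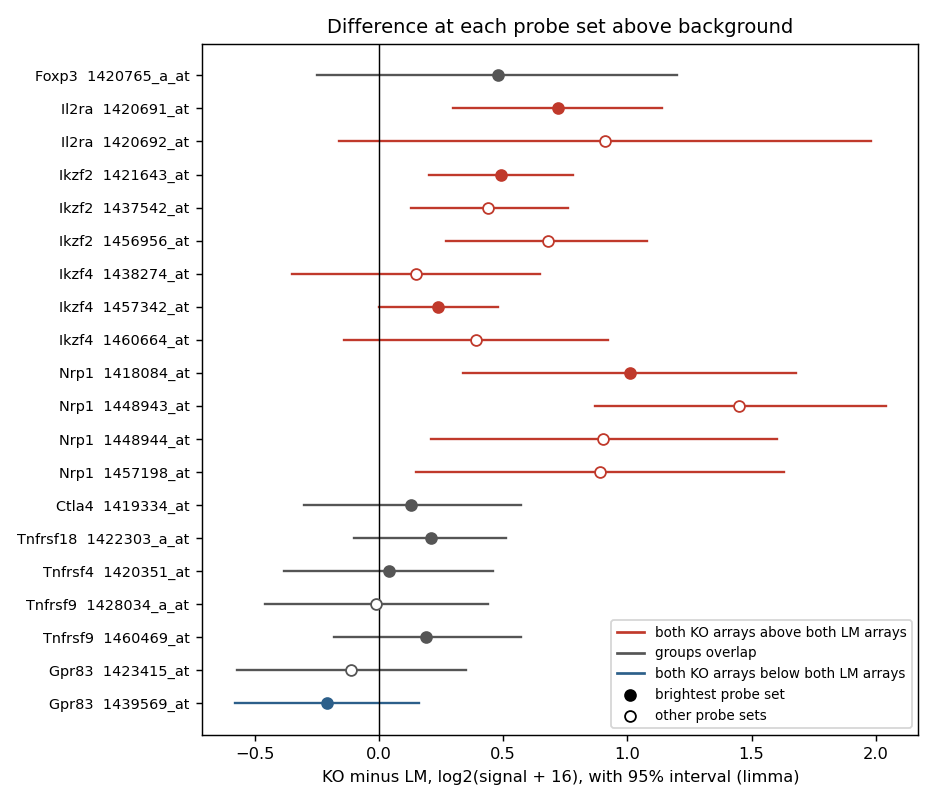
KO minus LM difference with its 95% interval (limma, log2 scale) at the 20 probe sets above background on at least 2 arrays, filled for the brightest probe set of a gene. Red marks probe sets with both KO arrays above both LM arrays, as at all 12 probe sets of Il2ra, Ikzf2, Ikzf4 and Nrp1, grey those where the groups overlap and blue the 1 Gpr83 probe set with the KO arrays below.

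At the level of probe sets, 12 of the 20 above background on at least 2 arrays had both KO arrays above both LM arrays, against 18.3% of all 21793 probe sets tested. All 12 belonged to Il2ra, Ikzf2, Ikzf4 and Nrp1 and made up every tested probe set of these genes. The dimmer Il2ra probe set had passed the filter through the KO arrays alone, and without it the count was 11 of 19. Probe sets of a gene share its RNA, so these counts describe 4 genes and are no further support for them.

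Ctla4, the inhibitory receptor that competes with CD28 for its ligands, read 785.7 and 741.5 on the KO arrays, against 774.7 and 627.0 on the LM arrays. The groups overlapped, and the difference of 0.13 ± 0.20 (limma adjusted p = 0.921) had a 95% interval of 0.816-fold to 1.48-fold. It was 0.01 without LM replicate 2 and 0.26 without LM replicate 1.

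The 3 receptors of the tumour necrosis factor receptor family, which deliver costimulatory signals, all overlapped between the groups. Tnfrsf18 (GITR) read 3177.7 and 2588.1 on the KO arrays, against 2297.2 and 2722.9 on the LM arrays (0.21 ± 0.14, limma adjusted p = 0.794). Tnfrsf4 (OX40) read 1022.8 and 946.4 on the KO arrays, against 845.6 and 1093.3 on the LM arrays (0.04 ± 0.19, adjusted p = 0.984). For Tnfrsf18 KO replicate 1 was above both LM arrays and KO replicate 2 between them, and for Tnfrsf4 both KO arrays lay between the LM arrays.

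Tnfrsf9 (4-1BB) read 1581.6 and 1392.0 on the KO arrays, against 1175.7 and 1442.5 on the LM arrays, at its brightest probe set (0.19 ± 0.17, limma adjusted p = 0.848). A second probe set gave -0.01 and the remaining one was below background on all 4 arrays. The 95% intervals reached 1.43-fold for Tnfrsf18, 1.38-fold for Tnfrsf4 and 1.48-fold for Tnfrsf9, so differences up to these sizes are not excluded. With KO replicate 1 left out Tnfrsf18 gave 0.07, and with KO replicate 2 left out 0.34. With LM replicate 1 left out Tnfrsf9 gave 0.05 and Tnfrsf4 -0.15, and with LM replicate 2 left out they gave 0.33 and 0.23.

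Gpr83, a G protein-coupled receptor enriched in regulatory T cells of the mouse, was the 1 gene of the 10 with a negative difference. Its brightest probe set read 1263.9 and 1144.0 on the KO arrays, against 1494.5 and 1303.6 on the LM arrays, and the groups were separated by a narrow gap. The difference was -0.21 ± 0.17 (limma adjusted p = 0.829), with a 95% interval of 0.669-fold to 1.11-fold, and -0.11 at the other probe set, where the groups overlapped. Leaving out LM replicate 1 gave -0.11 and leaving out LM replicate 2 gave -0.32.

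**Figure D3:**
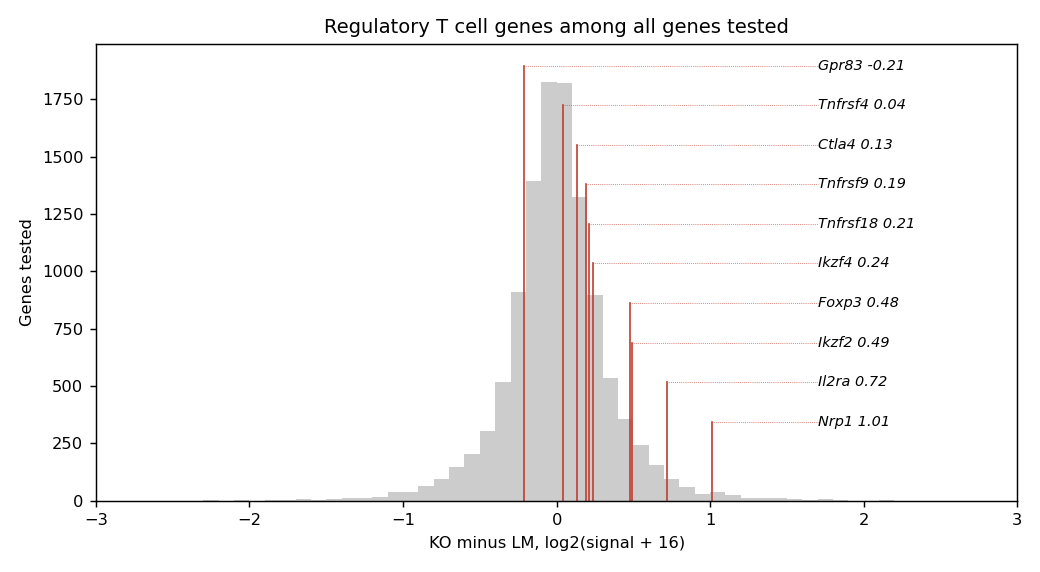
Histogram of KO minus LM differences (log2 scale) over all 11254 genes tested in bins of 0.1, with each of the 10 genes marked at its own difference. Nrp1 and Il2ra lie in the upper tail, Foxp3 and Ikzf2 further in, and the other 6 genes within the bulk.

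Set among all genes tested, 98.9% had a lower difference than Nrp1, 97.4% than Il2ra, 93.4% than Ikzf2 and 93.0% than Foxp3. For Ikzf4, Tnfrsf18, Tnfrsf9 and Ctla4 the shares were 81.4%, 78.2%, 77.1% and 70.4%, and for Tnfrsf4 and Gpr83 they were 56.9% and 19.7%. Across the arrays, KO replicate 1 had the highest value for 7 of the 10 genes and KO replicate 2 for 1. The lowest value lay on LM replicate 1 for 5 genes, on LM replicate 2 for 4 and on KO replicate 2 for 1. After each gene was centred on its own mean, the median over the 10 genes was 0.19 and 0.02 on KO replicates 1 and 2, against -0.21 and -0.17 on LM replicates 1 and 2.

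**Figure D4:**
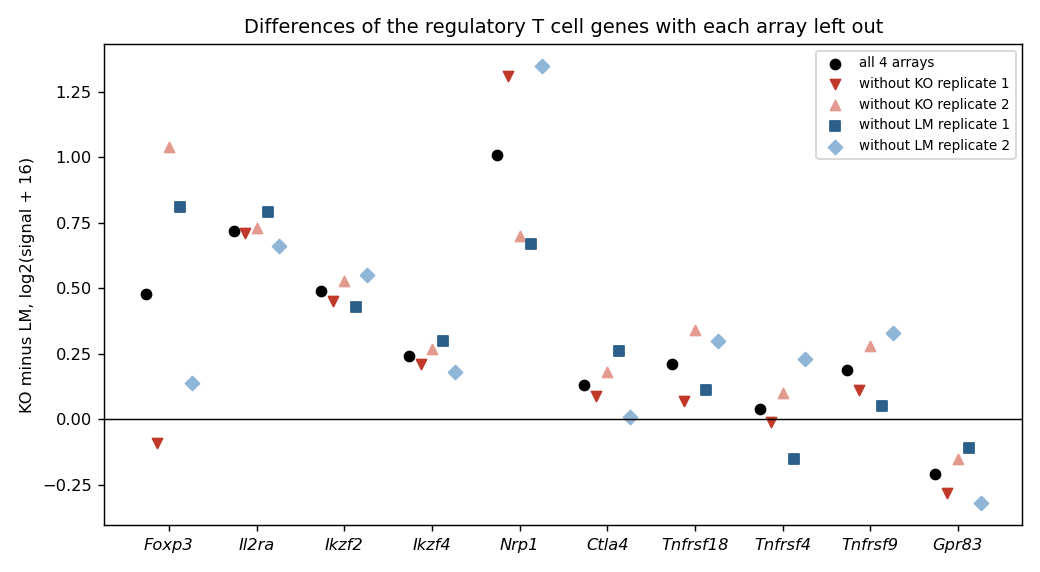
KO minus LM difference (log2 scale) of the 10 genes with all 4 arrays (black circles) and with each array left out in turn. Il2ra, Ikzf2 and Ikzf4 hold their place in every fit, Nrp1 stays between 0.67 and 1.35, and Foxp3 spreads from -0.09 to 1.04.

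Likeness over the arrays was measured to Foxp3 alone, whose own replicates spread widely, and not among the other 9 genes. The 5 genes closest to Foxp3 by Euclidean distance over its 4 centred log2 values were Zfyve16, Gm14198, Otub2, Slc6a17 and Kdelr1, at distances of 0.125 to 0.253. Of the members Ctla4 was closest, at rank 1323 of 11253 (distance 0.854). Ikzf4, Il2ra, Tnfrsf18 and Ikzf2 followed at ranks 1631, 1862, 1883 and 2126. Tnfrsf9, Gpr83 and Tnfrsf4 lay at ranks 3401, 4301 and 6118, and Nrp1 at rank 10636 (1.65). With 4 arrays such likeness is only a description.

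Called differences were found among other genes associated with regulatory T cells. A list of 31 effector and surface genes was drawn up with earlier results of these arrays known, so its direction is not independent evidence. Of its genes 27 had a named probe set and 19 were tested. In that list 2 genes rose on the KO arrays, 0 fell, and 18 of the 19 differences were positive, with a median of 0.59 against 0.00 over all genes tested. Because dim genes can enter through the KO arrays alone, as Ebi3 did, the same was counted without the filter, where 22 of 27 were positive with a median of 0.44 and 0 genes were called in limma. Called genes in the higher direction made up 0.133% of all genes tested.

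The genes that rose were Ccr8, a chemokine receptor of skin-homing and regulatory T cells, and Izumo1r, which encodes folate receptor 4. Ccr8 read 2103.7 and 2614.2 on the KO arrays, against 993.2 and 820.2 on the LM arrays (1.36 ± 0.18, limma adjusted p = 0.00692). Izumo1r read 7706.0 and 7090.6 on the KO arrays, against 4859.1 and 5022.2 on the LM arrays (0.58 ± 0.09, adjusted p = 0.0213). Both calls were lost without the filter on dim genes (adjusted p = 0.0928 and 0.234) and without the intensity trend, and that of Izumo1r also with median centring and without KO replicate 1 (0.54).

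Plagl1, a zinc finger factor, and Dusp4, a phosphatase of MAP kinases, came next, both with an adjusted p of 0.0778 in limma. Plagl1 read 2751.3 and 2079.4 on the KO arrays, against 1397.9 and 1250.7 on the LM arrays (0.85 ± 0.17). Dusp4 read 884.7 and 552.7 on the KO arrays, against 291.4 and 258.5 on the LM arrays (1.29 ± 0.26). Both passed the threshold under the alternative normalizations and with the stricter filter. With any 1 array left out, Plagl1 ran from 0.66 to 1.04 and Dusp4 from 0.95 to 1.63. The effector genes Il10, Il12a, Gzmb and Fgl2, the receptor Lag3 and the integrin chain Itgb8 were below background on every array.

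The signalling genes around the members gave no called difference. With 0.275% of all genes tested called, the counts of 0 in this and the following lists are near that background. Of 11 tested genes of interleukin-2 receptor and STAT5 signalling, 4 were positive, 0 were called and the median was -0.03. The shared beta chain Il2rb, which pairs with CD25, read 1083.2 and 1005.6 on the KO arrays, against 835.5 and 744.5 on the LM arrays (0.40 ± 0.18, limma adjusted p = 0.585). The signal transducer Stat5b (-0.22), the interleukin-15 receptor chain Il15ra (0.35) and the survival factor Bcl2 (-0.09) had larger p-values.

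Of 16 tested genes of the tumour necrosis factor receptor family and of NF-kB signalling, 6 were positive and 0 were called, with a median of -0.07. The NF-kB inhibitor Nfkbia had the smallest p of this list (0.25 ± 0.08, limma adjusted p = 0.351), followed by Traf1 (0.36), Cd40 (-0.47) and Tnfrsf1a (-0.34). Of the ligands of the 3 receptors, Tnfsf4 was below background on every array and Tnfsf9 was above it on too few arrays to be tested.

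Among 25 tested regulators and partners of Foxp3, 0 were called and the median was 0.02. The transforming growth factor beta mediator Smad3 read 2694.8 and 3030.7 on the KO arrays, against 1994.5 and 1866.2 on the LM arrays (0.57 ± 0.14, limma adjusted p = 0.187). Irf4, a factor induced by T cell receptor signals, differed by 0.69 ± 0.21 (limma adjusted p = 0.335). Its difference ran from 0.38 to 1.0 with any 1 array left out. Foxo1, which supports Foxp3 induction, gave -0.33 and Foxp1 0.13.

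Of 9 tested CD28 family receptors and ligands, 5 were positive and 0 were called, with a median of 0.12. The inhibitory receptor Pdcd1 read 455.6 and 648.1 on the KO arrays, against 258.0 and 342.5 on the LM arrays (0.84 ± 0.26, limma adjusted p = 0.348). Btla gave -0.19, Cd86 0.50 and Cd274 0.33. Of the semaphorin and neuropilin partners 4 were tested and 0 called, with Nrp2 at 0.58, Plxna1 at -0.33, Sema4a at -0.12 and Sema4d at 0.07. Of 7 tested genes known to be higher in conventional T cells 4 were positive and 0 were called, with Pde3b at 0.38, Dapl1 at -0.66, Igfbp4 at -0.15 and Cd40lg at -0.20.

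**Figure D5:**
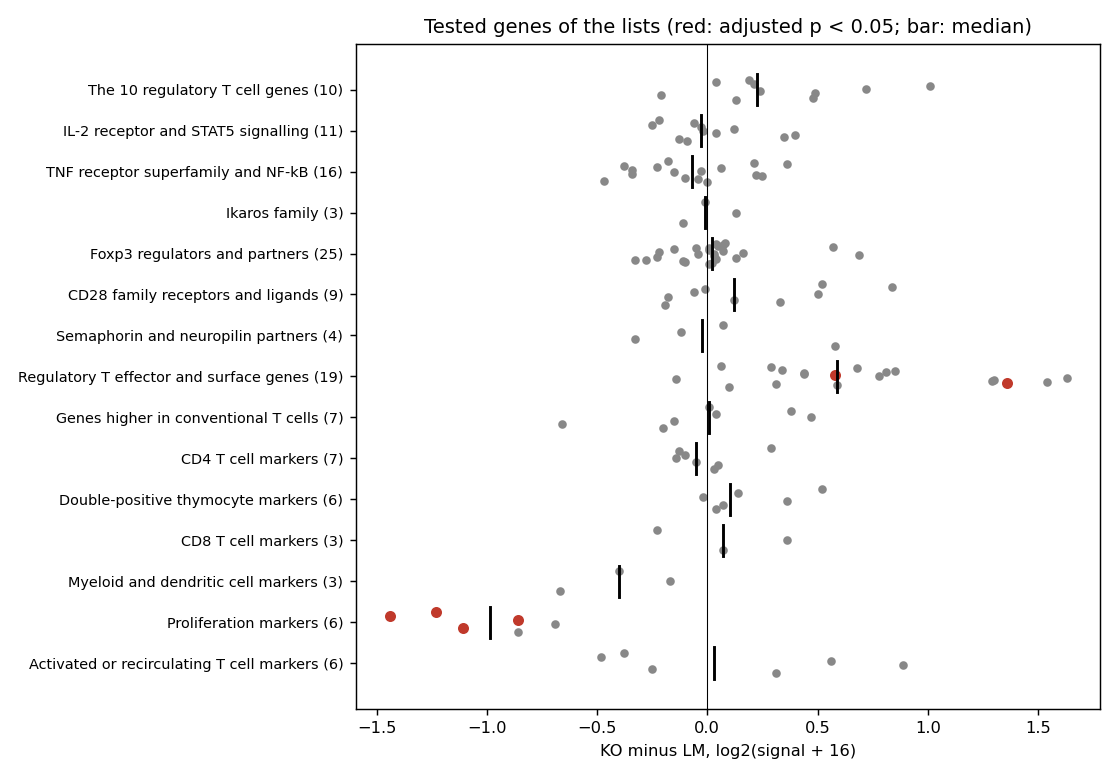
KO minus LM difference (log2 scale) of every tested gene in the lists with at least 3 tested genes, 1 point per gene, with the list median as a bar and the number tested in brackets. Red points passed the adjusted threshold, and they lie among regulatory T effector and surface genes (higher) and proliferation markers (lower).

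Markers of other cells were checked beside these values. Proliferation markers were lower on the KO arrays in all 6 tested genes, of which Mki67, Top2a, Ube2c and Ccna2 fell, with a summed signal of 6375 and 6806 on the KO arrays against 12641 and 13776 on the LM arrays. Of all genes tested 0.142% were called lower, and 18.3% had both KO arrays below both LM arrays, as all 6 of these had. As for Ccr8 and Izumo1r, these calls were lost without the filter and without the intensity trend, where 0 genes passed in limma.

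Of 6 tested activated or recirculating T cell markers 0 were called, and they lay in opposite directions. The activation marker Cd44 read 659.5 and 750.1 on the KO arrays, against 307.7 and 457.0 on the LM arrays (0.89 ± 0.24, limma adjusted p = 0.262). The early activation marker Cd69 read 3642.9 and 6093.1 on the KO arrays, against 2934.0 and 3588.5 on the LM arrays (0.56 ± 0.20, adjusted p = 0.427). Both KO arrays lay above both LM arrays for these 2 genes, as for 19.1% of all genes tested. Klf2, which drives thymic egress genes, differed by -0.48 ± 0.16 (limma adjusted p = 0.393) and the homing receptor Ccr7 by -0.25 ± 0.12 (adjusted p = 0.639). Each had both KO arrays below both LM arrays, as 18.3% of all genes tested had. The egress receptor S1pr1 (-0.38) and the chemokine receptor Ccr6 (0.31) overlapped between the groups. The summed signal, in which these directions offset each other, was 14797 to 15865 on the KO arrays and 15044 to 16258 on the LM arrays. Double-positive thymocyte markers had 5 of 6 positive and 0 called (4065 to 4206 on the KO arrays, 3528 to 4222 on the LM arrays). Ptcra was below background on every array, while Dntt, Cd8a, Cd8b1, Rag1 and Arpp21 were above it on all 4. Dntt was the brightest, at 2057.7 and 2185.7 on the KO arrays against 1865.1 and 2453.1 on the LM arrays. CD8 T cell markers had 2 of 3 positive and 0 called (2007 to 2352 on the KO arrays, 2115 to 2212 on the LM arrays). The part of these cell states in the differences above was not tested.

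Markers of other cells that the sort was meant to remove, or that a thymus also holds, had low summed signals, with some genes detected. This does not extend to CD25, whose gene Il2ra was above background on every array at its brighter probe set. Summed signals for 6 NKT and NK cell markers were 400 to 408 on the KO arrays and 451 to 458 on the LM arrays. Of these genes, Tbx21, Eomes, Nkg7 and Ncr1 were below background on every array. Zbtb16 was above it on all 4, at 119.4 and 110.7 on the KO arrays against 163.9 and 157.6 on the LM arrays. For Zbtb16 both KO arrays were below both LM arrays (-0.49 ± 0.36, limma adjusted p = 0.807). For 6 B cell markers the summed signals were 260 to 418 on the KO arrays and 333 to 354 on the LM arrays. Cd79b, Ms4a1 and Pax5 were below background on every array. For 8 myeloid and dendritic cell markers the sums were 319 to 449 on the KO arrays and 438 to 478 on the LM arrays. Itgax, Adgre1, Flt3 and Batf3 were below background on every array. The sums for 6 thymic epithelial markers were 347 to 372 on the KO arrays and 285 to 421 on the LM arrays. Over only 2 genes each, gamma delta T cell markers gave 316 to 386 on the KO arrays and 351 to 476 on the LM arrays. Erythroid markers gave 110 to 293 on the KO arrays and 187 to 227 on the LM arrays. Sums over so few genes cannot be set beside those of the longer lists. Sox13 made up most of the gamma delta sum and was above background on every array. It read 336.4 and 277.3 on the KO arrays, against 442.9 and 303.8 on the LM arrays. Of these 6 lists 0 genes were called.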

How the data were processed

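The deposited values are linear signal intensities, 1 for each probe set on each array. Neither the summarising program nor its background correction is known here. The deposited values had been scaled, since each array's mean after trimming 2% at each end was 500.0. RNA was amplified with WT-Ovation Pico, per the labels' protocols. Of 45101 probe sets 64 controls were left out. Names were used for the 34945 probe sets with 1 gene symbol in the platform annotation (34741 matched RefSeq, 0 symbols updated), while 932 with several symbols and 9160 with none stayed unnamed.

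Array medians of log2(intensity + 16) ran from 7.28 to 7.44, and the arrays were quantile normalized. The log2 scale with a pseudocount of 16 understates changes of dim genes. A gene was represented by its brightest probe set and tested if above background on at least 2 arrays, which kept 11254 genes, all 10 members among them. limma 3.58.1 in R 4.3.3 (lmFit, eBayes with an intensity trend, genotype as the only term) gave two-sided p-values with Benjamini-Hochberg adjustment over every gene tested, and a second fit took all single-gene probe sets. Intervals are 95%. Where a group lay below background on both arrays, it was raised on each array to the lowest value above background. This gave a lower bound on the difference of the means, without regard to their spread. Promoter windows came from RefSeq (GRCm38.p6), which held 8 of the 10 members. Python 3.11.15, pandas 2.3.3 and matplotlib 3.10.9 served for tables and plots.

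The members and all lists were chosen with earlier results of these data known. Named were the 10 members, Cul3, the called genes or the 4 genes with the smallest p of each pathway list, and the 5 genes nearest to Foxp3. The effector and marker genes below background, Ebi3 and the other genes named were chosen after their values were seen. Whether replicates are separate animals is not stated in the labels, so the p-values reflect a spread between samples that may be technical. The number of arrays limits the precision. Alternatives changed the normalization, filter, pseudocount, eBayes settings, use of probe sets, the replicate number as a block, and the arrays used.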

Additional observations from a re-analysis of the deposited data

How the results depend on the processing

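Of the 10 regulatory T cell genes 0 passed in limma at any normalization, filter, pseudocount, eBayes setting or use of probe sets tried, and from 0 to 1 (Nrp1, without LM replicate 2) with 1 array left out. In the fits without an LM array limma gave every gene the spread of the trend at its intensity, whatever its own. From 7 to 9 differences were positive and the median ran from 0.10 to 0.31 over the fits without 1 array. With the replicate number as a block 0 genes passed, 9 were positive and the median was 0.22. Deviations of same-numbered arrays from their group means correlated at -0.02 over the genes tested, so the numbers were not taken to pair the arrays. Over all genes, 31 were called, against 46 without normalization, 81 with median centring, 48 with the block, 0 without the filter and 0 without the trend, where 1246 and 920 genes lay at an unadjusted p under 0.05. Leaving out 1 array gave from 40 (KO replicate 2) to 97 (LM replicate 2) calls.

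Some signs turned, for Foxp3 and its nearest genes as well as for smaller differences. Median centring gave -0.02 for Tnfrsf4 and -0.00048 for Sema4d, and the mean of all probe sets gave 0.26 for Bcl2, 0.04 for Cul3, -0.04 for Foxp1, 0.02 for Ikzf1 and -0.09 for Otub2. With each array left out in turn the ranges were -0.09 to 1.04 for Foxp3, -0.15 to 0.23 for Tnfrsf4, -0.05 to 0.03 for Cul3, -0.25 to 1.02 for Gm14198, -0.20 to 0.77 for Kdelr1, -0.24 to 0.82 for Otub2, -0.11 to 0.77 for Slc6a17, -0.05 to 0.92 for Zfyve16, -0.74 to 0.08 for Plxna1, -0.29 to 0.0015 for Igfbp4, -0.19 to 0.16 for Ikzf5 and -0.35 to 0.11 for Sema4a. The cause was not tested.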
